A study of Sus scrofa with 18 samples.

Results

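The Notch pathway genes described here are 3 receptors (NOTCH1, NOTCH2, NOTCH3), 3 ligands (DLL1, DLL3, JAG1) and 4 transcription factors of the HES and HEY family (HES1, HES5, HES6, HEY1). They were chosen by gene name from the gene table of the RNA-seq of the developing pig brain, in which all 10 were found among 31908 genes, and all 10 passed the filter on low counts. Whole brains of domestic pig fetuses (Landrace × Large White gilts inseminated from a commercial boar line) were sampled at gestation day (GD) 45, GD60 or GD90, from 3 females and 3 males a day and with 1 library a fetus. No fetus was treated and no gene was modified, so the 6 groups were set by fetal sex and gestation day. Age could not be separated from the dam, since each dam gave fetuses of 1 day. The labels also give the sex of the neighbouring fetuses, which was not balanced between the groups and was not in the model. The study asked how gene expression changes with gestation day and with sex, and the 10 genes were examined for both.

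Notch receptors are membrane proteins that are activated by the ligands DLL1 and JAG1 on neighbouring cells. Activation cuts the receptor, and its inner part enters the nucleus, where it joins the DNA-binding protein RBPJ and switches on HES1, HES5 and other repressors of the proneural genes that drive neuron formation. In the developing brain the pathway is known for keeping radial glia, the progenitors of neurons and glia, from differentiating too early. DLL3 acts inside the cell and is known as an inhibitor of the pathway rather than as an activating ligand, and HES6 is known to oppose HES1 and to favour neuron formation.

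The libraries held 15118843 to 19729783 counts (median 16413097), and the members with the fewest counts were DLL3 (85 to 268 counts a library) and HES5 (128 to 937). Levels are given as CPM, the share of a gene in the counts of its library scaled to a common total after the TMM correction for library composition, with the mean ± SD of 6 fetuses a day. The tissue held the neuron genes TUBB3, RBFOX3, SNAP25, SYT1 and STMN2 at 5730 to 9730 CPM in sum in every library. HOX genes of the hindbrain and spinal cord summed to between 0 and 65.4 CPM at GD45 and to at most 1.2 CPM later, so the HOX signal differed among the GD45 fetuses. The male GD45 replicate 17 stood apart from the other males of its group (chi-square per degree of freedom 108.7 and 129.6 across all genes, against 6.71 to 66 between the other replicates of a group), and the results that most rest on it are also given without it.

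RBPJ is known to bind the letters TGGGAA, and the paired sites of the HES1 promoter are a known target of the activated receptor. The 250 bases before the annotated start of HES1, HES5 and HES6, 3 members that fell with gestation day, are shown from the RefSeq copy of Sscrofa11.1 as 5′ to 3′ on the strand of the gene, to place the letters of RBPJ beside the values that follow. Capitals mark TGGGAA on either strand. Only TGGGAA, with or without a leading G, was searched for RBPJ, so variants of its site are not marked. Which stretches of the HES1 window form the known paired sites was not examined, and the capitals do not mark them as such.
HES1, chr13:131135474-131135723, plus strand: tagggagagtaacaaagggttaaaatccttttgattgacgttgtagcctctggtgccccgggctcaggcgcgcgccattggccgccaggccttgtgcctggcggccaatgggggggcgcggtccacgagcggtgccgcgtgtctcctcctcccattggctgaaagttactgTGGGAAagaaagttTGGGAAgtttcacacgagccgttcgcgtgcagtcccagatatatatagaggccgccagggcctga
HES5, chr6:64411007-64411256, minus strand: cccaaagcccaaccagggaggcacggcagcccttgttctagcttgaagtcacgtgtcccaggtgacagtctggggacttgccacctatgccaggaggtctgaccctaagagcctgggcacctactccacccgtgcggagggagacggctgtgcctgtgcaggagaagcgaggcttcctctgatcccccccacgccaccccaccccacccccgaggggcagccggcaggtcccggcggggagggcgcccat
HES6, chr15:137787695-137787944, minus strand: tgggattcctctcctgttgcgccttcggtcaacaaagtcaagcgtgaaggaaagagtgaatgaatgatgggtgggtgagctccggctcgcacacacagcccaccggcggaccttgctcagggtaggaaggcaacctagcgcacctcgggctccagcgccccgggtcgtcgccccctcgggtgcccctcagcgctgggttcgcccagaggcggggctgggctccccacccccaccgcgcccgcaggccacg
The HES1 window held TGGGAA 2 times on the strand of the gene, beginning 79 and 65 bases before the annotated start, and the first of them was part of GTGGGAA. Of 30431 such windows in the genome, 23.5% held TGGGAA and 5.18% held GTGGGAA on either strand. The windows of HES5 and HES6 held neither. HEY1, which rose, held TGGGAA 1 time on the opposite strand, there too as part of GTGGGAA. NOTCH2 and JAG1 held TGGGAA 1 time each on the opposite strand without the leading G, and NOTCH3, DLL1 and DLL3 did not hold it. The letters CACGCG and CACNAG, at which HES proteins are known to bind, were held by 7.54% and 32.7% of all windows on either strand. They occurred 2 and 4 times in the HES1 window and 1 time each in the HEY1 window, and CACNAG occurred 1 time in the DLL1 window, counting both strands. CACGTG, held by 5.42% of all windows, occurred 1 time each in the windows of HES5 and DLL3. The windows of HES1, which fell, and HEY1, which rose, held the same 4 of the 5 sets of letters searched. A match of letters is a description of the window and not evidence of binding. The annotated start differed between the deposited table and RefSeq by 246 bases for HES1, 465 for HES5 and 5 for HES6. It differed by 416 bases for DLL1, 426 for JAG1, 15 for NOTCH2, 6 for NOTCH3 and 23 for HEY1. For HES1, HES5 and JAG1 the RefSeq start lies downstream of the deposited one. Their windows therefore leave out the 246, 465 and 426 bases just before the RefSeq start, which were not searched. For DLL3 the annotated start differed by 11992 bases. The windows of DLL3 and DLL1 lie within the RefSeq spans of these genes and not before their RefSeq starts. NOTCH1 lies on an unplaced scaffold and its window was not analysed here.

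Set per kilobase of gene (FPKM, from the CPM and the length in the deposited table), HES6 had the highest values at every day, but this place rests on the gene table alone. The deposited exon table held 4.58% of the counts of HES6, and with the same lengths HES6 was there at 18.7 ± 7.89, 11.9 ± 4.39 and 5.95 ± 0.804 FPKM at the 3 days, at ranks 4, 5 and 7 of the members and below NOTCH1 (48.5 ± 7.47, 34.6 ± 6.28 and 25.8 ± 3.68). The place of HES6 among the members is therefore uncertain. In the gene table its level was 191 ± 77.5 FPKM at GD45, 129 ± 22.1 at GD60 and 66.4 ± 10.2 at GD90, and NOTCH1 came next with 25.3 ± 3.63, 19.3 ± 4.07 and 14.7 ± 3.12 FPKM. The ranges of HES6 and NOTCH1 in the gene table did not overlap at any day. At GD45 NOTCH1, HES5 (20 ± 11.4 FPKM) and HES1 (19.6 ± 5.1 FPKM) overlapped in range and stood above the others. DLL1 (9.39 ± 1.31 FPKM), JAG1 (8.98 ± 1.34), HEY1 (7 ± 0.61), NOTCH3 (6.93 ± 0.571), DLL3 (5.75 ± 1.55) and NOTCH2 (4.22 ± 1.05) followed, each overlapping with the next. Without male GD45 replicate 17 the GD45 levels were 159 ± 9.16 FPKM for HES6, 17.8 ± 3.15 for HES1 and 15.5 ± 3.61 for HES5 (n = 5). At GD90 HEY1 had moved from rank 7 to rank 3 with 13 ± 1.57 FPKM, between NOTCH1 and HES1 (10.3 ± 2.13 FPKM), whose ranges overlapped with it. DLL1 (3.87 ± 0.254 FPKM), DLL3 (3.75 ± 0.742 FPKM) and NOTCH2 (3.29 ± 0.775 FPKM) were lowest at GD90 and overlapped with each other, and JAG1 (5.61 ± 0.809 FPKM) lay above DLL1 in every library.

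**Figure D1:**
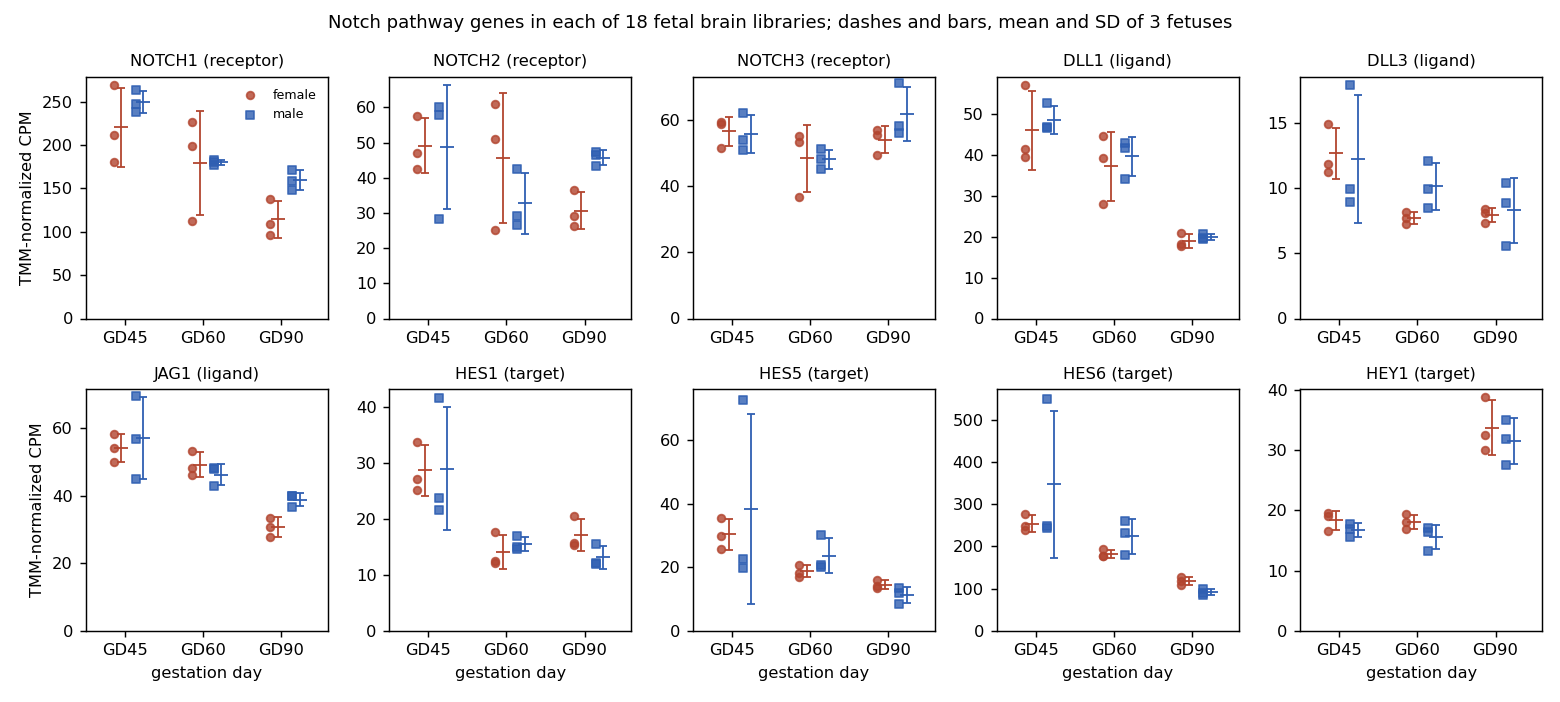
TMM-normalized CPM (y axis, from 0, its scale set for each gene) of the 10 genes in each of the 18 libraries by gestation day (x axis). Circles are females and squares are males, and dashes with bars give the mean and SD of 3 fetuses. HEY1 alone was higher at GD90 than in all earlier libraries, DLL1, JAG1, HES5 and HES6 were lower at GD90 than in all earlier libraries, and the highest HES1, HES5 and HES6 values at GD45 were of 1 male library, replicate 17.

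Among the receptors, NOTCH1 fell with gestation day. Its lowest, median and highest values were 180, 242 and 269 CPM at GD45, 112, 181 and 226 CPM at GD60, and 96.3, 143 and 171 CPM at GD90. The ranges of neighbouring days overlapped, and those of GD45 and GD90 did not. NOTCH2, which in the brain is also known from radial glia, had values of 28.4, 52.4 and 60.2 CPM at GD45, 25.2, 35.9 and 61 CPM at GD60, and 26.2, 40 and 47.3 CPM at GD90, and these ranges overlapped throughout. NOTCH3, best known from the mural cells of blood vessels, had 50.9, 56.4 and 62.1 CPM at GD45, 36.8, 49.6 and 55.1 CPM at GD60, and 49.5, 56.6 and 71.2 CPM at GD90, again with overlap between all days. The female GD60 replicate 15 was the lowest of its day for all 3 receptors, at 112 CPM of NOTCH1, 25.2 CPM of NOTCH2 and 36.8 CPM of NOTCH3.

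The activating ligands DLL1 and JAG1 fell between GD60 and GD90. DLL1 had lowest, median and highest values of 39.5, 46.7 and 57 CPM at GD45, 28.1, 40.5 and 44.5 CPM at GD60, and 17.8, 19.6 and 20.9 CPM at GD90. Its 6 values at GD90 all lay below those of the earlier days. JAG1 had 45.1, 55.4 and 69.4 CPM at GD45, 42.8, 48 and 53.2 CPM at GD60, and 27.7, 35.1 and 40 CPM at GD90, also with no overlap between GD90 and the earlier days. The inhibitory ligand DLL3 had 8.91, 11.5 and 17.9 CPM at GD45, 7.26, 8.28 and 12 CPM at GD60, and 5.58, 8.25 and 10.4 CPM at GD90, and all 3 ranges overlapped.

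The nuclear factors differed in when they changed. HES1, the repressor that holds progenitors, had lowest, median and highest values of 21.6, 26.1 and 41.6 CPM at GD45, 12.2, 14.7 and 17.6 CPM at GD60, and 11.9, 15.4 and 20.5 CPM at GD90. All GD45 libraries were above all GD60 and GD90 libraries, while the ranges of GD60 and GD90 overlapped. HES5, another repressor of the same kind, had 19.7, 27.8 and 72.8 CPM at GD45, 17, 20.4 and 30.1 CPM at GD60, and 8.4, 13.5 and 16.1 CPM at GD90. HES6 had 239, 248 and 548 CPM at GD45, 176, 186 and 259 CPM at GD60, and 84.7, 104 and 127 CPM at GD90. For HES5 and HES6 the GD90 values lay below all others and the GD45 and GD60 ranges overlapped. HEY1, known as a Notch target in vessels and in glia, had 15.6, 17.3 and 19.6 CPM at GD45, 13.3, 17 and 19.3 CPM at GD60, and 27.6, 32.2 and 38.8 CPM at GD90, where every library exceeded all earlier ones.

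The comparison of GD60 with GD45 asked what changed in the earlier period. With the sexes averaged, 2 of the 10 members passed an adjusted p of 0.05 (the quasi-likelihood test of edgeR, with p-values adjusted by the method of Benjamini and Hochberg over 16325 genes), both lower, where 16.7% of all tested genes passed and 7.37% passed as lower. HES1 fell by 0.96 on the log2 scale (SE 0.16, adjusted p = 0.000614), from 28.8 ± 7.51 to 14.8 ± 2.24 CPM (n = 6 a day, edgeR). HES6 fell by 0.56 on the log2 scale (SE 0.16, adjusted p = 0.0275), from 300 ± 122 to 203 ± 34.8 CPM (n = 6 a day, edgeR). HES1 was the only member without overlap between the days, against 3.84% of tested genes that were lower without overlap. All 10 members had a log2 fold change below 0, with a median of -0.36 against -0.01 over all genes tested, and 7 of 10 were under 0.05 before adjustment, against 30.4% of all genes. HES5 had a log2 fold change of -0.69 (SE 0.25, adjusted p = 0.0705), DLL3 one of -0.49 (SE 0.18, adjusted p = 0.0727) and NOTCH1 one of -0.39 (SE 0.14, adjusted p = 0.0776). HEY1 had -0.06 with a 95% interval of -0.27 to 0.15.

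The HES6 call did not hold when female GD45 replicate 12, female GD60 replicate 3, female GD60 replicate 5 or male GD60 replicate 4 was left out (adjusted p between 0.0581 and 0.0684), nor in the exon table (adjusted p = 0.0899). It was also lost with fetuses of the same day and litter size taken as a block of possible littermates (limma-voom, adjusted p = 0.0523). In male GD45 replicate 17, HES6 was at 548 CPM, HES5 at 72.8 CPM, HES1 at 41.6 CPM and DLL3 at 17.9 CPM, each the highest of the 18 libraries, and NOTCH2 and JAG1 were the lowest of their day at 28.4 and 45.1 CPM. The same library had the highest sum of radial glia markers of all (3340 CPM, against 1820 to 2100 in the other GD45 libraries), the highest sum of blood genes (779 CPM), and the lowest sums of proneural (121 CPM) and proliferation markers (197 CPM) at GD45. Its sums of neuron (8570 CPM), endothelium (464 CPM) and microglia markers (77.6 CPM) were also the highest at GD45. Those of astrocyte (126 CPM), fibroblast and meninges (569 CPM) and mural markers (138 CPM) were the lowest of that day. The part of these differences in the HES values was not tested. Without that library the log2 fold change was -0.80 for HES1 (adjusted p = 0.000254), -0.32 for HES6 (adjusted p = 0.0136) and -0.28 for HES5 (adjusted p = 0.173), and JAG1 then passed with -0.30 (adjusted p = 0.0136, edgeR).

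The comparison of GD90 with GD60, which uses the same GD60 libraries, held more calls. Of the 10 members 6 passed, 1 higher and 5 lower, where 42.4% of all genes passed, 21.4% as higher and 20.9% as lower. HEY1 rose by 0.96 on the log2 scale (SE 0.10, adjusted p = 1.22e-06), from 16.9 ± 2.03 to 32.6 ± 3.94 CPM (n = 6 a day, edgeR). The largest fall was that of DLL1, by 0.98 (SE 0.12, adjusted p = 7.14e-06), from 38.4 ± 6.24 to 19.5 ± 1.28 CPM, and JAG1 fell by 0.47 (SE 0.10, adjusted p = 0.00114), from 47.7 ± 3.38 to 34.8 ± 5.01 CPM. HES6 fell by 0.96 (SE 0.17, adjusted p = 0.000189), from 203 ± 34.8 to 105 ± 16.1 CPM, and HES5 by 0.72 (SE 0.26, adjusted p = 0.0334), from 21.2 ± 4.6 to 12.9 ± 2.6 CPM. NOTCH1 fell by 0.41 (SE 0.14, adjusted p = 0.0298), from 179 ± 37.7 to 137 ± 28.9 CPM. HEY1 was higher without overlap between the days (12.9% of all genes were), and DLL1, JAG1, HES5 and HES6 were lower without overlap (11.2% of all genes were).

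HES1, which had changed in the earlier period, had a log2 fold change of 0.02 between GD60 and GD90 with a 95% interval of -0.32 to 0.37, from 14.8 ± 2.24 to 15.1 ± 3.13 CPM. NOTCH3 had 0.26 (SE 0.11, adjusted p = 0.0564), NOTCH2 -0.05 (95% interval -0.49 to 0.39) and DLL3 -0.12 (95% interval -0.51 to 0.26). The calls of NOTCH1 and HES5 did not hold in every refit with 1 library left out. Both were also lost with the block of possible littermates (limma-voom, adjusted p = 0.0556 and 0.0511). NOTCH1 was lost without any 1 of female GD60 replicates 3 and 5, male GD60 replicates 6 and 16, female GD90 replicates 2 and 9, and male GD90 replicates 8 and 10 (adjusted p between 0.0508 and 0.0958). HES5 was lost without any 1 of female GD60 replicate 5, male GD60 replicate 6, female GD90 replicates 7 and 9, and male GD90 replicates 8 and 10 (adjusted p between 0.0523 and 0.0871). NOTCH3 passed without any 1 of female GD60 replicates 3 and 5 and male GD45 replicate 17 (adjusted p between 0.0339 and 0.0488). It also passed with DESeq2 (adjusted p = 0.041), in limma-voom with sample quality weights (0.0167) and in the exon table (0.038, edgeR). In the remaining alternatives NOTCH3 did not pass.

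**Figure D2:**
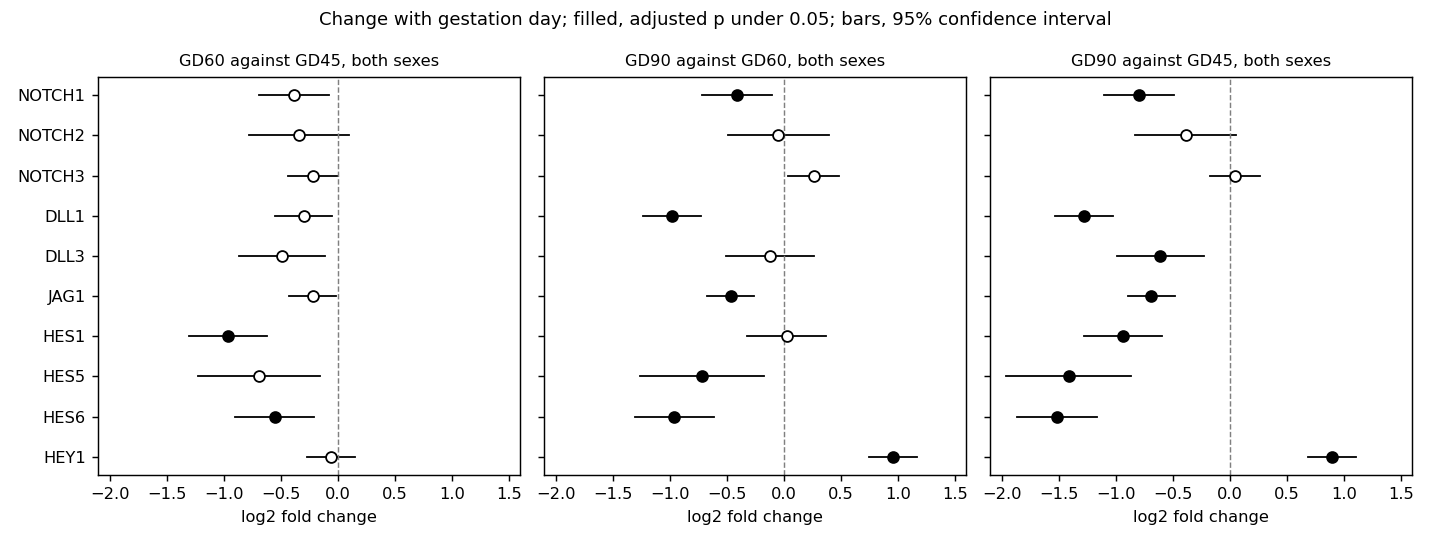
Log2 fold change (x axis) of the 10 genes (rows) in the 3 comparisons of gestation days over both sexes, with 95% confidence intervals from edgeR as bars. Filled points passed an adjusted p of 0.05: 2 genes for GD60 against GD45, 6 for GD90 against GD60 and 8 for GD90 against GD45, with HEY1 as the 1 gene called higher.

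Over the whole span, GD90 against GD45, 8 of 10 members passed, HEY1 as higher and 7 as lower, where 57.5% of all genes passed. This comparison shares its libraries with both others. HES6 fell by 1.51 on the log2 scale (SE 0.17), HES5 by 1.41 (SE 0.26), DLL1 by 1.28 (SE 0.12), HES1 by 0.94 (SE 0.16), NOTCH1 by 0.80 (SE 0.14), JAG1 by 0.69 (SE 0.10) and DLL3 by 0.61 (SE 0.18). HEY1 rose by 0.89 (SE 0.10). All of these except DLL3 differed without overlap between GD45 and GD90, as did 33.8% of all genes. Without male GD45 replicate 17 the log2 fold changes were -1.28 for HES6, -0.99 for HES5 and -0.77 for HES1. NOTCH2 had a log2 fold change of -0.39 (adjusted p = 0.123), which became -0.53 (adjusted p = 0.0194) without male GD45 replicate 17, and NOTCH3 had 0.04 with a 95% interval of -0.18 to 0.26. Summed CPM of the 3 receptors was 340 ± 39.4 at GD45, 267 ± 55.3 at GD60 and 233 ± 42.8 at GD90, and that of the 3 ligands was 115 ± 10.7, 95.1 ± 9.63 and 62.4 ± 6.22. In these RNA samples of whole brain, fewer cells that express a gene and less RNA of it per cell cannot be told apart.

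The same periods were then taken in each sex. From GD45 to GD60, HES1 was the 1 member called in females (7.22% of all genes were called) and the 1 member called in males (5.61% of all genes). In females HES1 was at 25.1, 27.1 and 33.7 CPM at GD45 and at 12.2, 12.4 and 17.6 CPM at GD60, a fall by 1.02 (SE 0.23, adjusted p = 0.013). In males it was at 21.6, 23.7 and 41.6 CPM at GD45 and at 14.5, 14.9 and 17 CPM at GD60, a fall by 0.90 (SE 0.23, adjusted p = 0.0285). With 3 fetuses a group these 2 calls were lost when single libraries were left out, in females without GD45 replicate 18, GD60 replicate 3 or GD60 replicate 5, and in males without GD45 replicate 17 or GD60 replicate 4, 6 or 16. Without male GD45 replicate 17 the log2 fold change of HES1 in males was -0.57 (adjusted p = 0.0694, edgeR), and JAG1 was the 1 member called there (-0.46, adjusted p = 0.0247), where 9.32% of all genes were called. In the same fit 4 members were called in females, where 14% of all genes were, and without male GD45 replicate 14, 2 were called in males, where 4.49% were.

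From GD60 to GD90, 4 of 10 members were called in females, where 27.1% of all genes were called, and 4 of 10 in males, where 34.5% were. DLL1 and HEY1 were called in both. DLL1 in females was at 28.1, 39.1 and 44.5 CPM at GD60 and at 17.8, 18.3 and 20.9 CPM at GD90, and in males at 34.2, 41.8 and 42.9 CPM and at 19.4, 19.8 and 20.8 CPM. The log2 fold changes of DLL1 were -0.97 in females and -0.99 in males (SE 0.17 in both). HEY1 in females was at 17, 18.1 and 19.3 CPM at GD60 and at 30, 32.5 and 38.8 CPM at GD90, and in males at 13.3, 16.4 and 17 CPM and at 27.6, 31.9 and 35.1 CPM. Its log2 fold changes were 0.90 in females and 1.02 in males (SE 0.14 in both). NOTCH1 (-0.65, SE 0.20) and JAG1 (-0.68, SE 0.14) were called in females, where the values in males were -0.18 and -0.25 (SE 0.20 and 0.14). HES5 (-1.07, SE 0.37) and HES6 (-1.29, SE 0.24) were called in males, where the values in females were -0.36 and -0.63 (SE 0.36 and 0.23). The NOTCH1 call in females was lost without any 1 of GD60 replicates 3 and 5 and GD90 replicates 2 and 9 (adjusted p between 0.0843 and 0.156, edgeR). The HES5 call in males was lost without any 1 of GD60 replicates 6 and 16 and GD90 replicates 8 and 10 (adjusted p between 0.0521 and 0.129, edgeR). HES6 in females had an adjusted p of 0.0535 (edgeR). There HES6 passed without any 1 of male GD45 replicates 11, 14 and 17 (adjusted p between 0.000505 and 0.0375, edgeR). It also passed without TMM factors (0.00753), without the filter (0.041) and with only the compared libraries (0.00314, all edgeR). DESeq2 (0.0417) and limma-voom with the block (0.0484), without it (0.0476) and with quality weights (3.38e-05) called it too. In the remaining alternatives it did not pass.

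The difference between the sexes in these changes was tested as the interaction of sex and day, and 0 of the 10 members passed in either period (edgeR), as did 0 of all genes tested. DESeq2 also called 0 members in both periods, where it called 0% and 1.64% of all genes. Limma-voom with sample quality weights, which gave male GD45 replicate 17 the lowest weight, called 3 and 6, where it called 20.5% and 45.4% of all genes. Before adjustment, 0 members for GD45 to GD60 and 2 members for GD60 to GD90 were under 0.05, where 2.04% and 19.8% of all genes were. The 2 were NOTCH2, whose log2 change was higher in males by 1.06 (95% interval 0.17 to 1.94, adjusted p = 0.218), and JAG1, higher in males by 0.43 (95% interval 0.01 to 0.85, adjusted p = 0.246, edgeR). NOTCH2 was at 25.2, 50.9 and 61 CPM in females at GD60 and at 26.2, 29.1 and 36.6 CPM at GD90, and in males at 26.5, 29.2 and 42.6 CPM and at 43.3, 46.4 and 47.3 CPM. Its female GD60 values spanned a wider range than the difference between the days. Without male GD45 replicate 17, which is not in the later period but enters the shared spread, 13.3% of all genes passed the later interaction against 0 with it. Of the members 5 were then under 0.05 before adjustment, and HES6 was the 1 that passed, with a log2 change in males minus that in females of -0.66 (adjusted p = 0.0232, edgeR). HES6 also passed with only the libraries of the comparison fitted (-0.66, adjusted p = 0.0482), where 7.14% of all genes did.

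Males and females of the same day were compared directly. At GD45, GD60 and GD90, 0 of the 10 members passed (edgeR), where 0.0919%, 0.098% and 0.098% of all genes passed. DESeq2 also called 0 at each day, where it called 0.11%, 0.129% and 0.319% of all genes. Limma-voom with sample quality weights called 0, 2 and 5, where it called 0.123%, 25.3% and 32.7% of all genes. Before adjustment 0, 0 and 2 members were under 0.05, where 2.59%, 4.8% and 13.6% of all genes were. At GD45 no member differed without overlap (5.6% of all genes did), and at GD60 DLL3 did, with 8.43, 9.93 and 12 CPM in males against 7.26, 7.72 and 8.14 CPM in females (11.2% of all genes did). At GD90 5 members did, where 35.8% of all genes did. The females of GD90 lay mostly beside males and the males mostly beside females, and the part of neighbour sex in these differences was not tested. NOTCH1 was at 148, 159 and 171 CPM in males and at 96.3, 109 and 138 CPM in females, a log2 difference of 0.48 (95% interval 0.05 to 0.91, adjusted p = 0.352, edgeR). JAG1 was at 36.6, 40 and 40 CPM in males and at 27.7, 30.8 and 33.5 CPM in females (log2 difference 0.34, 95% interval 0.04 to 0.64, adjusted p = 0.35, edgeR). NOTCH2 was also higher in all 3 males, with a log2 difference of 0.58 (95% interval -0.05 to 1.20). HES6 was at 84.7, 90.6 and 99.6 CPM in males and at 109, 117 and 127 CPM in females, and HES5 at 8.4, 11.8 and 13.5 CPM and at 13.5, 14 and 16.1 CPM. Their log2 differences were -0.36 (95% interval -0.85 to 0.13) and -0.37 (95% interval -1.15 to 0.40). The nearest male and female values of HES5 are equal as rounded here. Without male GD45 replicate 17, 0 members passed at any day, where 0.102%, 0.12% and 0.12% of all genes did, and 1, 1 and 5 were under 0.05 before adjustment. The 5 at GD90 included HES6 (-0.37, adjusted p = 0.0856) and JAG1 (0.33, adjusted p = 0.0946, edgeR).

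**Figure D3:**
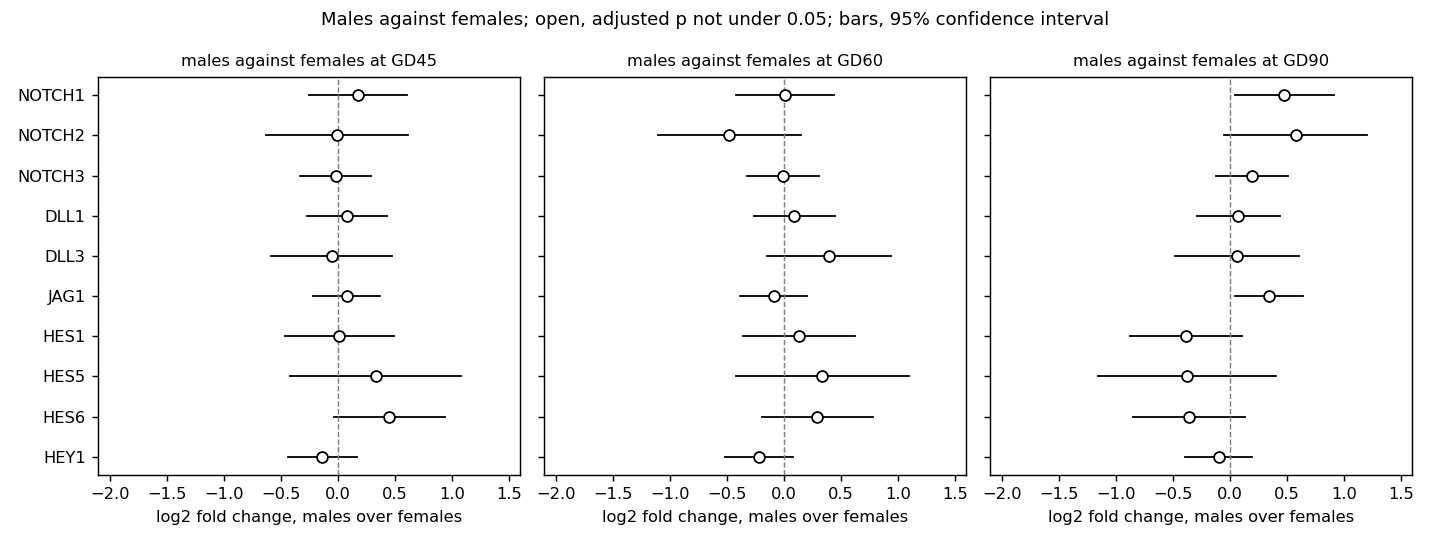
Log2 fold change of males over females (x axis) of the 10 genes (rows) at GD45, GD60 and GD90, with 95% confidence intervals from edgeR as bars. All points are open, since 0 of 10 genes passed an adjusted p of 0.05 at any day, and the intervals of NOTCH1 and JAG1 at GD90 lie above 0 before adjustment.

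The other genes of the pathway were taken from a list of 49, of which 48 passed the filter on low counts (HES7 did not). From GD45 to GD60, 4 of the 48 were higher and 4 lower, with a median log2 fold change of -0.03. These are 16.7% of the list, with 8.33% in each direction, where 16.7% of all genes were called, 9.35% as higher and 7.37% as lower, so the list was called at the rate of all genes. JAG2, a further ligand, rose from 75.2 ± 9.68 to 113 ± 16.9 CPM (log2 fold change 0.58, SE 0.09). Of the genes of ligand and receptor turnover 3 rose as well, NEURL1 by 0.50 (SE 0.09), DTX1 by 0.49 (SE 0.11) and FBXW7, the ubiquitin ligase that marks active Notch for breakdown, by 0.46 (SE 0.08). DLK1, a non-canonical ligand, fell by 1.50 (SE 0.29) from 12.9 ± 6.24 to 4.54 ± 1.41 CPM, and MFNG, a glycosyltransferase that modifies the receptors, by 1.30 (SE 0.19) from 20.2 ± 8.32 to 8.14 ± 1.3 CPM. HES4 fell by 0.45 (SE 0.10) and the deacetylase HDAC1 by 0.37 (SE 0.10). None of the 8 genes of receptor cleavage and none of the 6 of the nuclear complex passed in this period.

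From GD60 to GD90, 7 of the 48 were higher and 13 lower, with a median log2 fold change of -0.16. These are 41.7% of the list (14.6% higher and 27.1% lower), near the 42.4% of all genes called (21.4% higher and 20.9% lower). Of the 13 lower genes, 9 were of the nuclear complex or the corepressors, a count that was not tested. RBPJ, the DNA-binding partner of the cut receptor, fell by 0.93 (SE 0.13, adjusted p = 1.79e-05), from 37.7 ± 7.84 to 19.8 ± 1.45 CPM (n = 6 a day, edgeR). Of the 6 genes of the nuclear complex 3 fell, among them the acetyltransferase CREBBP by 0.68 (SE 0.14), and of the 7 corepressors 6 fell, among them TLE3 by 0.78 (SE 0.12) and SPEN by 0.66 (SE 0.21). MFNG fell further, by 0.97 (SE 0.20), to 4.18 ± 1.05 CPM, and HES2 fell by 0.85 (SE 0.30) at a level of 1.27 ± 0.41 CPM at GD60. FBXW7 rose by 1.05 (SE 0.08, adjusted p = 1.95e-08), from 87.1 ± 3.73 to 181 ± 10.7 CPM (n = 6 a day, edgeR), and NEURL1 by 0.74 (SE 0.09), from 197 ± 17.6 to 329 ± 29.1 CPM. NRARP, a target that limits Notch activity, rose by 0.60 (SE 0.17), from 5.29 ± 1.06 to 8.04 ± 1.12 CPM. APH1B, a part of the cleaving enzyme, had a log2 fold change of 1.27 (SE 0.50, adjusted p = 0.0488) at levels of 0.218 ± 0.138 and 0.483 ± 0.281 CPM. The other ligands did not pass in this period.

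**Figure D4:**
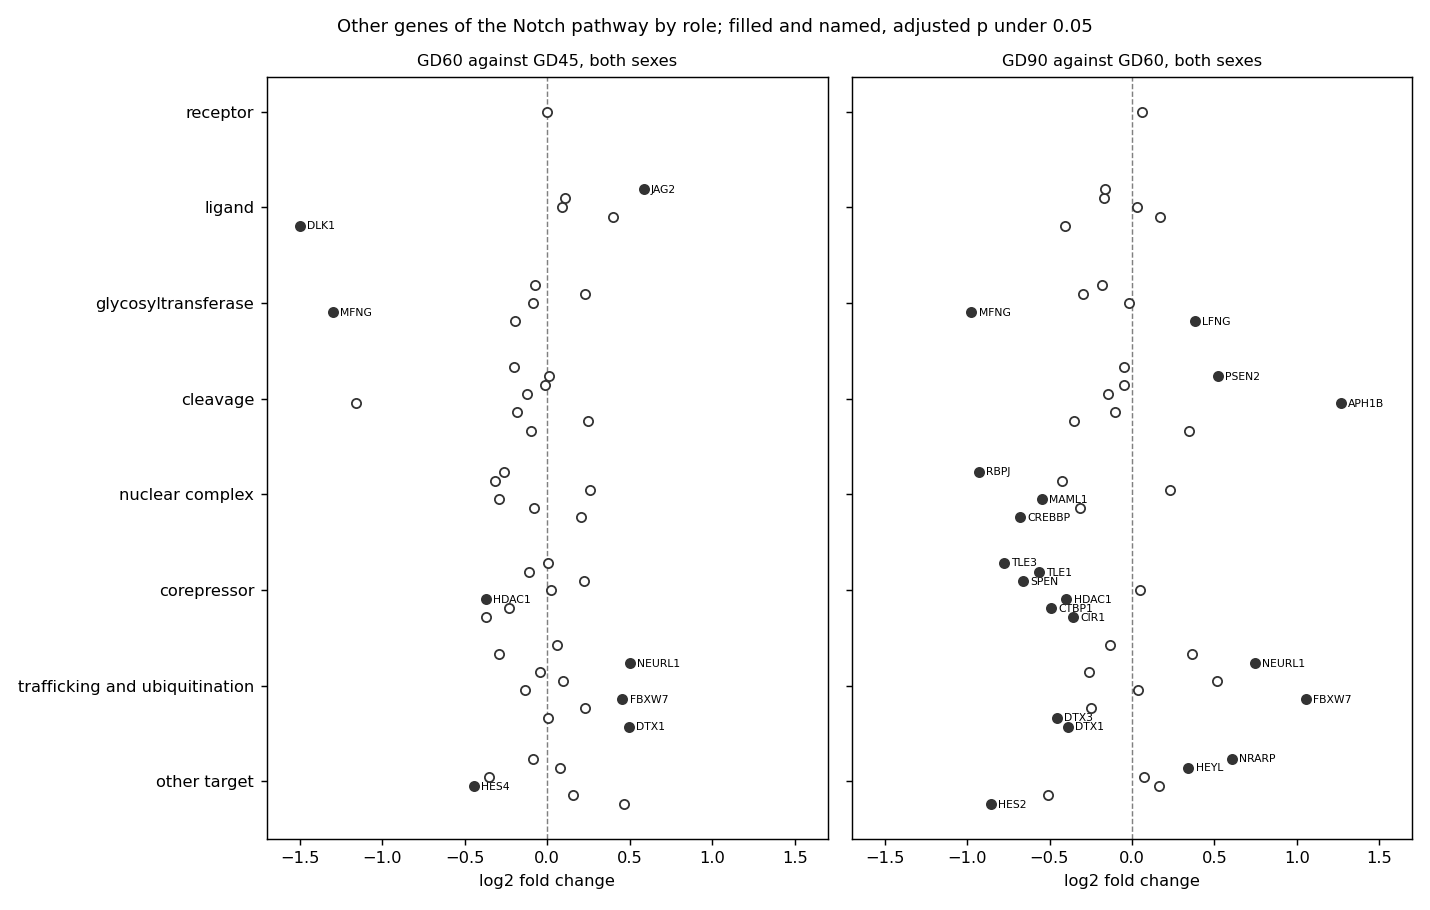
Log2 fold change (x axis) of 48 other genes of the Notch pathway, grouped by role (rows), for GD60 against GD45 (left) and GD90 against GD60 (right). Filled points with names passed an adjusted p of 0.05 (4 higher and 4 lower on the left, 7 higher and 13 lower on the right), and 9 of the 13 lower genes on the right are in the nuclear complex and corepressor rows.

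Cell type markers also differed between the days. The 5 measured proneural markers (NEUROG1, NEUROG2, EOMES, NEUROD1, NEUROD4) summed to 121 to 203 CPM at GD45, 59 to 91.3 CPM at GD60 and 25.8 to 80 CPM at GD90, with 4 of 5 lower in each period. NEUROD1 had means of 36.9, 32.6 and 38.3 CPM at the 3 days. The other proneural markers had means of at most 1.78 CPM at GD90, so NEUROD1 made up most of that sum, and NEUROG1 was at 0 in some GD90 libraries. The 5 proliferation markers (TOP2A, CDK1, CCNB1, CCNB2, BUB1) summed to 197 to 277, 82.8 to 119 and 51.2 to 67.1 CPM, with 5 of 5 lower in each period. The 5 radial glia markers (PAX6, VIM, NES, FABP7, SLC1A3) summed to 1820 to 3340, 1420 to 1970 and 1230 to 1630 CPM, with 3 of 5 lower in each period and SLC1A3, which astrocytes also express, higher in the later one (log2 fold change 1.06, SE 0.09). The medians of these 3 sums were lower at each later day, as were the mean levels of HES5, HES6 and DLL1, whereas HES1 was not lower at GD90 than at GD60. The 6 markers of the oligodendrocyte lineage (OLIG1, OLIG2, PDGFRA, SOX10, MBP, MOG) summed to 132 to 209, 277 to 315 and 1300 to 2300 CPM, and the 4 astrocyte markers (GFAP, AQP4, ALDH1L1, GJA1) to 126 to 249, 337 to 436 and 1320 to 1710 CPM, with all of both lists higher from GD60 to GD90, where HEY1 rose. In the same period 5 of 5 microglia markers were higher (sums of 46.2 to 77.6, 63.4 to 93.5 and 119 to 166 CPM at the 3 days). Of the 6 endothelium markers (PECAM1, CDH5, CLDN5, KDR, FLT1, TEK) 2 were higher and 0 lower. Their sums were 296 to 464, 302 to 457 and 356 to 515 CPM at the 3 days. Of the 5 neuron markers 3 were higher and 1 lower, and TUBB3 had means of 4480 CPM at GD60 and 3470 CPM at GD90. Of all genes 21.4% were higher and 20.9% lower. The mural sum was 138 to 182, 159 to 178 and 245 to 276 CPM, with 4 of 6 higher in the later period, in which NOTCH3 did not pass (adjusted p = 0.0564, edgeR). The part of any of these cell types in the changes of the members was not tested.

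**Figure D5:**
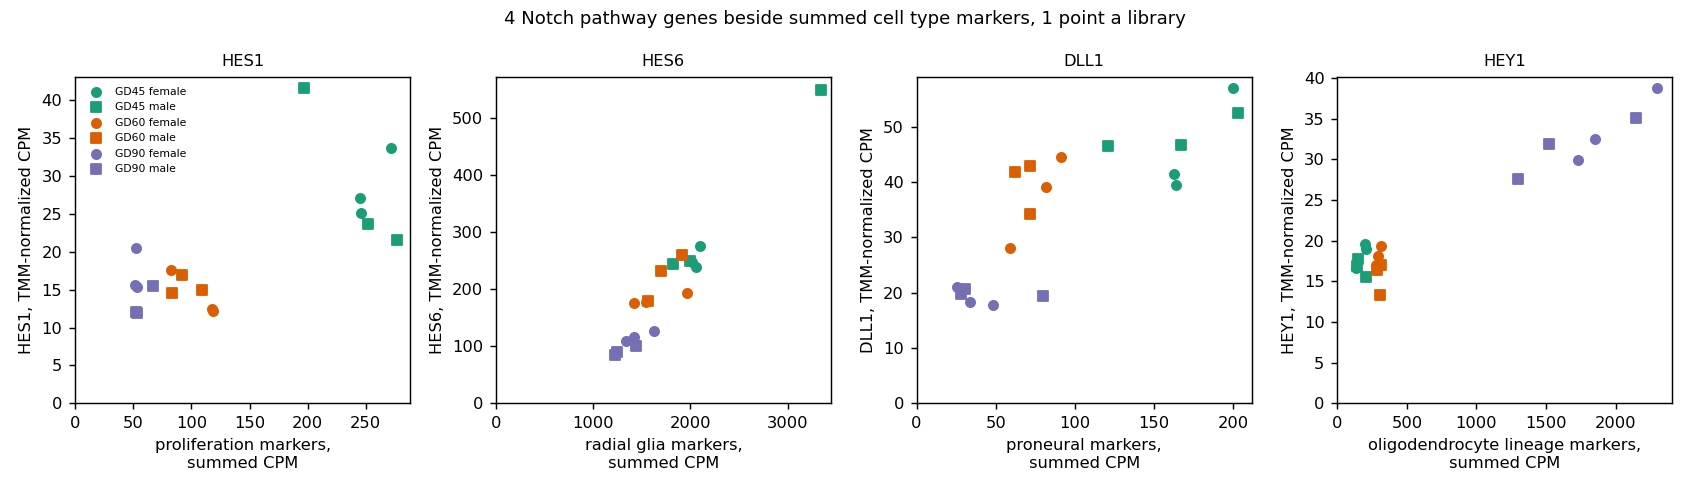
Each point is 1 library, colored by gestation day and shaped by sex, with the TMM-normalized CPM of HES1, HES6, DLL1 and HEY1 (y axes) against the summed CPM of proliferation, radial glia, proneural and oligodendrocyte lineage markers (x axes). The GD90 libraries, at 1300 to 2300 CPM of oligodendrocyte lineage markers, hold the 6 HEY1 values of 27.6 CPM and above, and the library at 548 CPM of HES6 is also the one at 3340 CPM of radial glia markers.

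The genes most like each member were taken as those with the highest Pearson r of log2 CPM over the 18 libraries, among 12793 genes with a symbol and a mean of at least 1 CPM. The 18 points share their gestation days, so these values describe the shared course over the days and carry no test. NOTCH1 was most like DCC (r = 0.956) and SMC1A (0.954), and NOTCH2 most like MEGF10 (0.974) and MYEF2 (0.955). NOTCH3 had weaker neighbours in ABTB2 (0.859) and DIPK1C (0.842), as had DLL3 in SZRD1 (0.872) and CRYBB1 (0.855). DLL1 was most like TP73 (0.977) and WDR33 (0.975), and JAG1 most like EIF4G2 (0.973) and CAPRIN1 (0.96). HES1 was nearest to CDKN3 (0.948), a gene of the cell cycle, and RAN (0.945). HES5 was nearest to NOL12 (0.96) and SPINDOC (0.956), HES6 to DDAH2 and P3H4 (0.991 for both), and HEY1 to NTM (0.962).

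Among the members themselves, HES5 and HES6 were the most alike pair over the 18 libraries (r = 0.925), and their r was 0.827 when each library was taken as its deviation from the mean of its day. Without male GD45 replicate 17 these values were 0.889 and 0.555 over 17 libraries, and DLL1 and JAG1 were then the most alike pair (0.904). NOTCH1 and DLL1 had 0.849 over all libraries and 0.775 within days. For DLL1 and HES6, 0.825 over all libraries compared with -0.157 within days, so that pair was alike in its course over the days and not among fetuses of 1 day. NOTCH1 and NOTCH3 went the other way, with 0.326 over all libraries and 0.75 within days. The most negative pairs within days were NOTCH2 with HES6 (-0.785) and HES1 (-0.767), and JAG1 with HES1 (-0.738) and HES6 (-0.709). Without male GD45 replicate 17 these were -0.779, -0.688, -0.659 and -0.663.

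Some members share ground with other annotated genes. NOTCH1 lies within the span of SSNA1 on the opposite strand and DLL3 within that of SUPT5H on the same strand, with 0 shared exon bases in both cases, and NOTCH3 shares 228 of its 8095 exon bases with a gene without a symbol on the opposite strand. Since the strand setting of the counting is not given in the sources used here, reads in those shared bases cannot be assigned to either gene with certainty.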

How the data were processed

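Total RNA of 18 whole fetal brains was enriched for mRNA and sequenced as paired ends. The authors checked the reads with FastQC, removed poor bases with Trimmomatic, mapped the rest by HISAT2 to the pig genome Sscrofa11.1 and counted them per Ensembl gene with featureCounts, and they deposited raw read counts without normalization, with repeat runs of 4 libraries in columns of their own (22 columns, all mapped). Runs were summed here (chi-square per degree of freedom between runs 1.607 to 1.673). Options for strand and for reads with several matches are not given in the sources used here. A deposited exon table of read counts was summed per gene as an alternative, and it held 4.58% of the counts of HES6 and 41.9% to 91.9% of those of the other members. A transcript table was not used.

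Genes were kept by filterByExpr (16325 of 31908 genes, with 99.9% of the counts), scaled by TMM (factors 0.849 to 1.07, lowest in male GD45 replicate 17) and fitted with 1 model of sex and day over all 18 libraries by the quasi-likelihood test of edgeR 4.0.16 in R 4.3.3, with Benjamini-Hochberg adjustment over all genes and a threshold of 0.05. Log2 CPM used a prior count of 2. Each SE is the fold change over the root of F. The fitting was tested on simulated data. Alternatives used DESeq2 1.42.0 and limma 3.58.1, and figures were drawn with matplotlib 3.10.9. No molecular identifiers were used, so the counting error takes each read for a molecule of its own and covers counting only. Each fetus was a separate animal.

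The members, the list of other pathway genes and the marker lists were chosen with earlier results of these data known. All members are named, other pathway genes where called (up to 10 a comparison, by size of change), and for each member the 2 most alike genes (1 for HEY1). Some genes of the lists are not reported here. The file itself named 16719 genes, and 782 further IDs were matched to a table of symbols. Of 64 markers 58 were matched by symbol (SOX2, HOPX, INSM1, MKI67, S100B and HBA were not analysed here). Fetuses of the same day and litter size, 1 of each sex, were taken as possible littermates only in the block alternative, since the labels name no dam.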

Additional observations from a re-analysis of the deposited data

Results flagged for a closer look

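Of 30 sets of 6 libraries (10 genes at 3 days), 3 held a library above the 95% limit of Dixon's test, which chance passes in about 1 of 20 sets. The test takes the gap of a library to its nearest neighbour as a share of the range of its day. Gap and range were taken on log2 CPM, so the shares below are not those of the CPM printed beside them. At GD60, NOTCH1 in female replicate 15 was at 112 CPM, against 177 to 226 CPM in the other 5 (gap 0.649 of the range). HES5 in male GD60 replicate 6 was at 30.1 CPM, against 17 to 20.8 CPM in the others (0.646). HES6 in male GD45 replicate 17 was at 548 CPM, against 239 to 276 CPM in the others (0.827). That library also deviated most over the 10 members, by 0.47 on average on the log2 scale and by 1.23 for HES5, and female GD60 replicate 15 came second with 0.296.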

How the results depend on the processing

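Over 28 alternatives, the calls of HES1 from GD45 to GD60, of DLL1, JAG1, HES6 and HEY1 from GD60 to GD90, and all 8 from GD45 to GD90 held in every one. The HES6 call of the earlier period held in 21, NOTCH1 of the later in 19 and HES5 in 21. No called value changed its sign. Of 9 pairs of fetuses of the same day and litter size, 5 had deviations with r over 0.1 (all 9 between -0.093 and 0.424). Each pair was 1 female and 1 male with consecutive replicate numbers. The paper names a paired-sample analysis without stating what was paired. The labels name no dam, so whether the pairs were littermates is not known, and the fit without a block was kept. If they were, the 6 fetuses of a day are not independent, and the fit without a block can overstate its calls. With this replicate block in limma-voom (correlation 0.104), 1 member was called from GD45 to GD60 and 4 from GD60 to GD90 (14.5% and 40% of all genes), with HES6 (adjusted p = 0.0523), NOTCH1 (0.0556) and HES5 (0.0511) lost. The same fit without the block, chosen after seeing the data, called 2 and 6. From GD45 to GD60 in both sexes, 4 were called by DESeq2, 4 from the exon table, 1 with only the compared libraries and 6 with sample quality weights, where 20.6%, 10.9%, 12% and 36.1% of all genes were called against 16.7% in the reported fit. The weights were lowest for male GD45 replicate 17 (0.0968) and 0.214 for female GD60 replicate 15. With the weights, calls were 4 in females and 6 in males for that period (35.9% and 26.5% of all genes), 8 in females from GD60 to GD90 (55.5%), 3 and 6 for the interactions of the earlier and later period (20.5% and 45.4%), and 2 and 5 between the sexes at GD60 and GD90 (25.3% and 32.7%). With only the compared libraries, calls were 4 in females and 0 in males from GD45 to GD60 (7.55% and 0% of all genes), 1 for the interaction of the later period (7.14%) and 1 between the sexes at GD90 (6.88%). The exon table gave 0 in males from GD45 to GD60 (2.55%). The cause of these differences was not tested.

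Leaving out 1 library at a time moved the calls of members and the share of all genes called. The period from GD45 to GD60 had 1 to 4 calls (12.4% to 20.3% of all genes). Females had 0 to 4 there (3.2% to 14%) and males 0 to 2 (2.87% to 9.32%). The period from GD60 to GD90 had 4 to 7 (37.1% to 49.5%). Females had 3 to 5 there (19.1% to 35.9%) and males 3 to 5 (23% to 44.3%). The whole span had 8 to 9 (52.8% to 58.5%), and the interaction of the later period 0 to 1 (0% to 13.3%). The earlier period in both sexes had 1 call without female GD45 replicate 12, female GD60 replicate 3 or male GD60 replicate 4 (13%, 12.4% and 14.5% of all genes). It had 4 without male GD45 replicate 11 or 14 (16% and 18% of all genes), where HES5 and DLL3 passed. NOTCH1 passed there without female GD60 replicate 5 (log2 fold change -0.49, adjusted p = 0.0335). DLL3, with 85 counts in its lowest library, had the fewest counts of the members.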
